A study of Rattus norvegicus with 4 samples.

Results

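The genes described here are the 4 Id genes (Id1, Id2, Id3 and Id4) together with 6 genes of the BMP and TGF-beta pathway, namely the ligand genes Bmp4, Tgfb1 and Tgfb2 and the SMAD genes Smad1, Smad3 and Smad7. They were taken by name, through the RefSeq accession that the array files give each probe, and not by any measured value. All 10 had a probe, 16 probes of the 41012 on the array, where 8899 genes could be named in all. Of the 10, 9 passed the filter on dim probes and were tested.

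The cells were PC12, a rat line grown from a pheochromocytoma, which is a tumour of adrenal chromaffin cells. PC12 is known as a line without working MAX protein, the dimerisation partner of MYC. One group was transfected with an empty vector and the other with a plasmid that codes for MAX, and both were kept under drug selection. Both groups carry the same parental background, so the empty vector cells also lack working MAX. Each group is a single transfected line, collected at passages 8 and 13 as 2 biological replicates, and which replicate is which passage was not given. The tests therefore measure spread between passages of a line and not between independent transfections. Each of the 4 RNA samples was hybridised in one colour (Cy3) to an Agilent rat array. Slide 1 held both empty vector arrays and MAX vector replicate 2, and slide 2 held MAX vector replicate 1 alone.

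Id proteins are helix-loop-helix proteins that have no basic region. They bind E proteins and other basic helix-loop-helix (bHLH) factors and keep them off DNA, and they are best known for holding back differentiation. In BMP signalling, a ligand joins type I and type II receptors, the receptor phosphorylates SMAD1, SMAD5 or SMAD9, and these enter the nucleus with SMAD4, where Id genes are among their direct targets. TGF-beta ligands act in the same way through SMAD2 and SMAD3, and SMAD7 is the inhibitory SMAD that acts on both branches. BMP4 from the dorsal aorta is known to direct neural crest cells toward the sympathoadrenal fate, from which chromaffin cells derive.

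Signal is given as the log2 of the processed intensity minus the 75th percentile of that array, in the order empty vector replicates 1 and 2, then MAX vector replicates 1 and 2. A log2 fold change is the mean of the MAX vector arrays minus the mean of the empty vector arrays, with its SE from limma and n = 2 arrays per group. Levels of different probes cannot be compared with each other, since each probe has its own brightness. An array had 26411 to 29328 probes well above background (64.4% to 71.51%), and 0 spots were saturated. With 4 arrays, precision is limited by their number. Across all 25356 genes tested, 213 passed limma's adjusted p of 0.05 (0.84%), 146 of them higher with MAX (0.576%) and 67 lower (0.264%). The probe for Max itself was well above background on none of the 4 arrays (-8.35, -8.07, -7.61 and -7.94). Whether the plasmid's insert covers that probe is not known from the sources used here, so its level is no check of the labels.

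The 213 genes that passed included none of the 9 members tested. Before adjustment, 3 of the 9 had a p under 0.05 in limma, against 16.1% of all genes: Id4 and Tgfb1 with higher signal in the MAX vector group and Tgfb2 with lower signal. The 4 arrays separated by group without overlap for 5 members. In Id4, Tgfb1 and Smad7 both MAX vector arrays lay above both empty vector arrays, which was also so for 24.3% of all genes, and in Id2 and Tgfb2 both lay below, as in 26% of all genes. Either kind of separation held for 50.3% of all genes, so 5 of 9 is near the background. The median log2 fold change of the 9 was -0.006, against -0.019 for all genes.

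**Figure D1:**
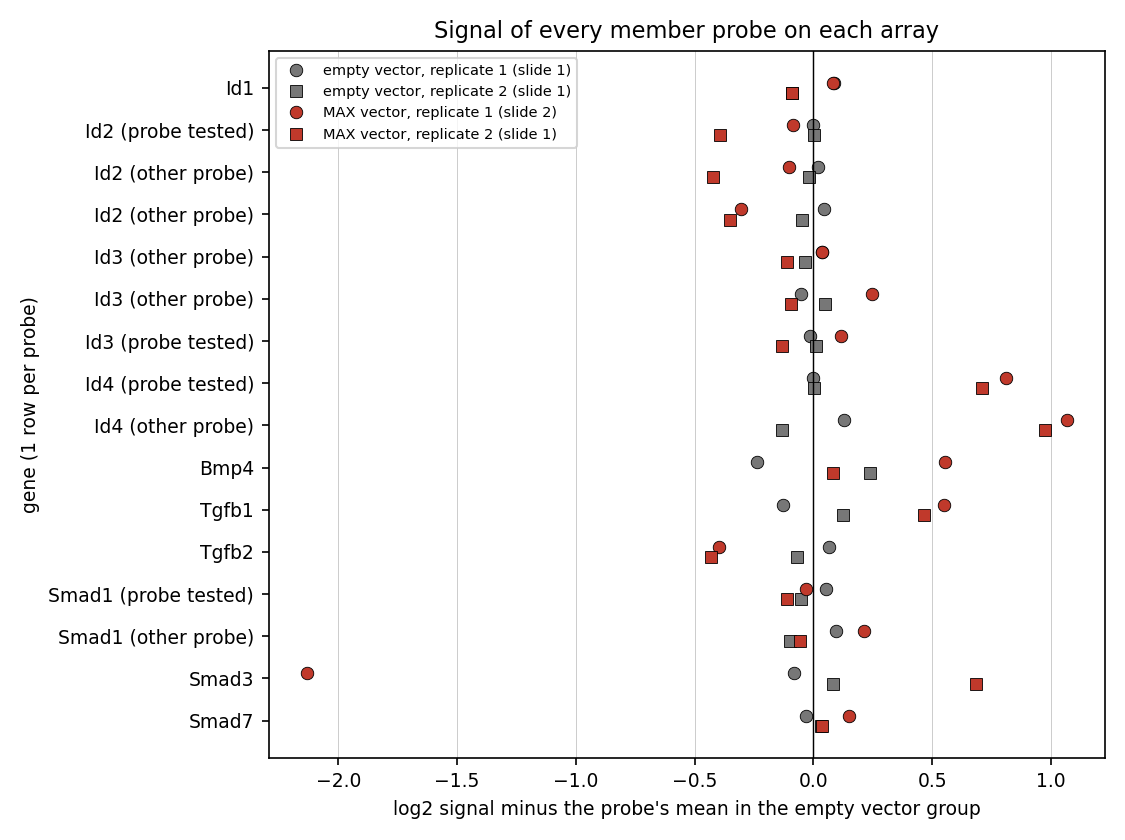
Log2 signal of all 16 member probes on the 4 arrays, minus the probe's mean in the empty vector group (x axis), with 1 row per probe; grey marks are empty vector arrays, red marks MAX vector arrays, circles replicate 1 and squares replicate 2. Both red marks lie to the right of both grey marks in both Id4 rows, and the 3 Id2 rows have both red marks to the left.

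Id4 was the Id gene with the widest gap between the groups. This Id family member is known from neural precursor cells and, unlike its relatives, has been described as an inhibitor of the other Id proteins. Its brighter probe gave 1.02 and 1.03 without and 1.84 and 1.74 with the MAX plasmid. Both MAX vector arrays stood above both empty vector arrays by far more than replicates of a group differed. The log2 fold change was 0.76 ± 0.09, a 1.7-fold difference with a 95% confidence interval of 1.42 to 2.02. It missed the threshold (adjusted p = 0.0699 in limma). The second Id4 probe gave 0.40, 0.14, 1.34 and 1.25, a log2 fold change of 1.02 ± 0.13 (2.03-fold, adjusted p = 0.0732 in a limma fit with 1 row per probe). Both Id4 probes thus separated the groups in the same direction.

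The call for Id4 turned on the processing, and it passed in 3 of 18 alternatives. With normexp, a background correction that adds 50 signal units and pulls the folds of dim probes toward 1, the log2 fold change was 0.61 ± 0.12 and passed (adjusted p = 0.0126 in limma), in a fit where 3.12% of all genes passed (1.68% higher and 1.43% lower). It passed as well when only genes well above background on all 4 arrays were tested (adjusted p = 0.0355) and when limma's variance prior followed signal level (adjusted p = 0.00841). In the other 15 it did not pass, among them limma with no filter on dim probes (adjusted p = 0.221) and with a replicate block (adjusted p = 0.167). Within slide 1, whose 3 arrays also give the estimate with the slide as a block, it was 0.71 ± 0.11 (adjusted p = 0.158).

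The other 3 Id genes showed smaller gaps. Id1, a classical BMP target, gave 4.14, 3.96, 4.14 and 3.96, and its groups overlapped fully. Its log2 fold change was -0.005 ± 0.12, and the 95% interval of the fold ran from 0.788 to 1.26. The interval therefore leaves out a change of the size fitted for Id4. Id3, a second BMP target, overlapped as well, with 6.57, 6.597, 6.70 and 6.46 on its brightest probe (-0.006 ± 0.12, interval of the fold 0.787 to 1.26). Its 3 probes ran from -0.038 to 0.077. The signs of Id1 and Id3 flip among settings and carry no direction.

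Id2, which is also known as a MYC target, was lower with MAX on all 3 of its probes. The brightest gave 5.71, 5.71, 5.62 and 5.32, so that most of the difference sat in MAX vector replicate 2. The log2 fold change was -0.24 ± 0.14 (adjusted p = 0.482 in limma), and without MAX vector replicate 2 it was -0.083. A second probe showed the same uneven pair, 4.22, 4.18, 4.10 and 3.78. On the third probe the MAX vector arrays were close together, 5.61, 5.52, 5.26 and 5.22 (-0.33 ± 0.09, adjusted p = 0.232). The 3 probes thus had 1 direction, and none passed.

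Ratios within an array do not depend on how arrays are scaled to each other, so the Id genes were also set against each other there, a choice made after their values were seen. Relative to its mean in the empty vector group, the log2 ratio of Id4 to Id2 was 0.999 higher in the MAX vector arrays, a 1.999-fold shift of the ratio. Id4 to Id1 shifted 1.7-fold (0.77 on the log2 scale) and Id4 to Id3 also 1.7-fold (0.77). In each of the 3 ratios both MAX vector arrays lay above both empty vector arrays. All 3 share Id4 as numerator, so they restate its gap and are not separate findings. Id4 over Id2 had to separate, since Id4 by itself lay higher and Id2 by itself lower. A two-sided exact permutation test of 2 arrays against 2 has 6 arrangements and cannot go below p = 0.333, which is what each ratio gave.

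**Figure D2:**
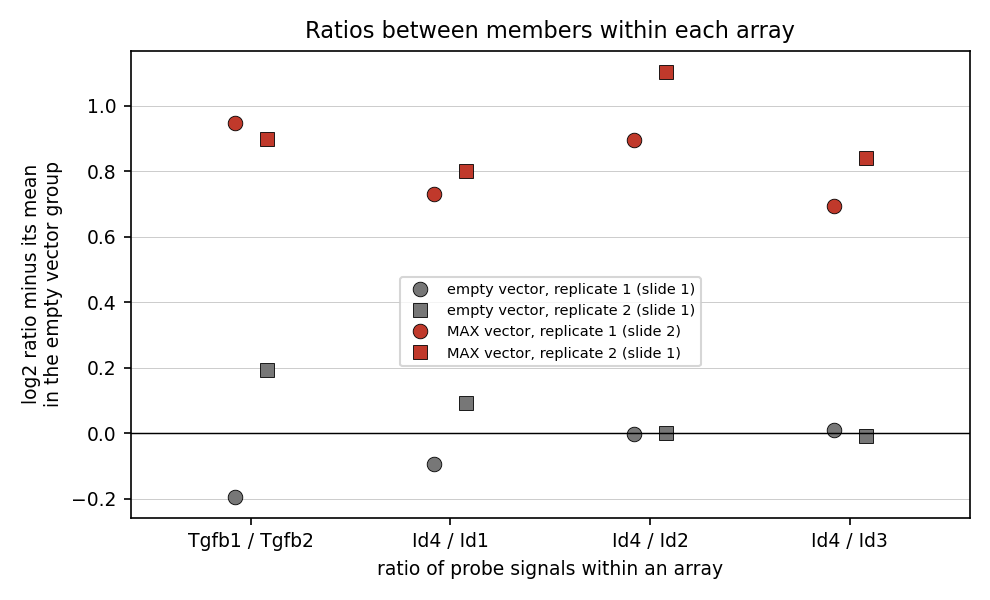
Log2 ratio of 2 probe signals on the same array, minus the mean of that ratio in the empty vector group (y axis), for Tgfb1 over Tgfb2 and Id4 over Id1, Id2 and Id3; grey marks are empty vector arrays and red marks MAX vector arrays. All red marks lie above all grey marks of the same ratio, with shifts of 0.92, 0.77, 0.999 and 0.77. The Id4 ratios share their numerator. Tgfb1 over Tgfb2 and Id4 over Id2 had to separate, since their genes separated in opposite directions.

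Among the 6315 other genes with a symbol that were tested, those whose 4 log2 values lay nearest those of Id4, after each gene was centred on its own mean, were Grin3b, Nxph3, Gzmc, Cox4i2 and Car2. Likeness was the root mean square distance over the 4 arrays, which ran from 0.025 for Grin3b to 0.040 for Car2. Grin3b encodes an NMDA receptor subunit, Nxph3 a neurexophilin, Gzmc a granzyme, Cox4i2 an isoform of a cytochrome c oxidase subunit and Car2 a carbonic anhydrase. Their log2 fold changes ran from 0.69 (Car2) to 0.80 (Nxph3), and none passed. Both follow from picking them for likeness to Id4 and are no separate result. Granzyme genes are close paralogs, so which of them gave that signal is uncertain.

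The promoters of the members were read to show the sequence at the genes that separated the groups. All 10 members matched RefSeq's promoter table, of assembly GRCr8, and the 250 bases before each start were searched on both strands for 3 motifs. These were CACGTG, the E-box bound by MYC and MAX, and the SMAD motifs GGCGCC and CAGAC, which reads GTCTG on the other strand. No match of 1 motif overlapped a match of another. CACGTG occurred in 2 of the 10 windows (Tgfb2 and Bmp4), against 5.59% of the 33469 promoters in that table. GGCGCC occurred in 1 window, that of Smad7, at 96 to 91 and 36 to 31 bases before the start, against 8.69% of all promoters. CAGAC occurred in 1 window, that of Bmp4, against 42.9%. None of the 3 was found in the windows of Id1, Id2, Id3 or Id4. Sites further upstream or inside a gene were not searched, so this does not show that the Id genes lack them. A match of letters is a description and not a bound site. Shown are the windows of the 3 members with an unadjusted p under 0.05, 5′ to 3′ on the gene's own strand, with capitals for CACGTG. Id4 lies at chr17:16598294-16598543 (minus strand), Tgfb1 at chr1:90324062-90324311 (plus strand) and Tgfb2 at chr13:100792686-100792935 (minus strand), where its E-box sits 229 to 224 bases before the start.
Id4 promoter: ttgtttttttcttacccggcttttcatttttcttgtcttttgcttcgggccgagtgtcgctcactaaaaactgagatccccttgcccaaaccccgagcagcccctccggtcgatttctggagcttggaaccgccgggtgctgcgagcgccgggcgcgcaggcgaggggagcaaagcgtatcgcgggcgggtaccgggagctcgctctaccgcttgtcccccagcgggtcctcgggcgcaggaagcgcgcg
Tgfb1 promoter: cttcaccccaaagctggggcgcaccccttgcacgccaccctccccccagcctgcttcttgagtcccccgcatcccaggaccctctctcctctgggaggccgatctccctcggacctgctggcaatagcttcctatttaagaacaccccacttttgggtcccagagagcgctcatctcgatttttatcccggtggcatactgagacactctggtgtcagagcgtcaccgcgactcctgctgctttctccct
Tgfb2 promoter: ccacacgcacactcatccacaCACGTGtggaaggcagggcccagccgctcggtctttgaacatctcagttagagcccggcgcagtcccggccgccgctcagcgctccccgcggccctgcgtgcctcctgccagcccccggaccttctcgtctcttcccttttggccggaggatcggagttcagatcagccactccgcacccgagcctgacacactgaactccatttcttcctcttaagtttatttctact

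Of the 3 member ligands, Tgfb1 and Tgfb2 differed in opposite directions and Bmp4 was not measurable. Tgfb1 encodes TGF-beta 1, the main secreted form of this growth factor in most tissues. Its probe is printed 10 times on each array, and the averages were 0.35, 0.60, 1.02 and 0.94. The MAX vector arrays lay close together and above both empty vector arrays, which differed more from each other. Across its 10 spots the SD within an array was 0.043 to 0.078, which measures the printing and scanning of an array and not the spread between samples. The log2 fold change was 0.51 ± 0.13 (1.42-fold, 95% interval 1.12 to 1.82), adjusted p = 0.204 in limma. Within slide 1 it was 0.47 ± 0.16.

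Tgfb2 encodes TGF-beta 2, which is known from neural crest and developing nervous tissue. Its probe gave 1.72, 1.58, 1.26 and 1.22, with both MAX vector arrays below both empty vector arrays. The fold change was -0.41 ± 0.10 on the log2 scale, 1.33-fold lower with an interval of the fold from 0.622 to 0.906. It missed the threshold as well (adjusted p = 0.192 in limma), and within slide 1 it was -0.43 ± 0.13. Within an array, the log2 ratio of Tgfb1 to Tgfb2 was -1.37, -0.98, -0.23 and -0.28, a 1.9-fold shift toward Tgfb1 (0.92 on the log2 scale, exact permutation p = 0.333, again the smallest possible). This ratio too was chosen after its values were seen, and it had to separate because Tgfb1 lay higher and Tgfb2 lower.

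Bmp4, the BMP ligand named above for the sympathoadrenal lineage, had a probe that was well above background on none of the 4 arrays. Its processed intensity was 1.8, 2.2, 2.6 and 2.1 units (log2 signals -8.60, -8.12, -7.81 and -8.28). No fold is given, and the values say only that the signal was too dim to measure in either group.

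The member SMAD genes encode a receptor-activated SMAD of the BMP branch (Smad1), one of the TGF-beta branch (Smad3) and the inhibitory SMAD (Smad7). Smad1 overlapped between the groups, with 1.77, 1.67, 1.69 and 1.61 (-0.070 ± 0.09, interval of the fold 0.792 to 1.15). Its dimmer probe had the other sign (0.079). Smad7, itself induced by BMP and TGF-beta signals, gave 3.67, 3.73, 3.85 and 3.74. Although the MAX vector arrays were above the empty vector arrays, the nearest values were almost equal. The log2 fold change was 0.094 ± 0.10 (adjusted p = 0.67 in limma), and the interval of the fold ran from 0.888 to 1.28. Neither gene's interval reaches the 2-fold mark in either direction.

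Smad3 could not be read reliably. Its probe gave -5.89, -5.72, -7.94 and -5.12, with processed intensities of 11.8, 11.6, 2.4 and 19.1 units. It was well above background on 3 arrays and not on MAX vector replicate 1, the array on slide 2. One MAX vector array was thus the lowest of the 4 and the other the highest. The fit gave -0.72 ± 1.01 (adjusted p = 0.758 in limma). Without MAX vector replicate 1 the value was 0.68 (adjusted p = 0.197), and without MAX vector replicate 2 it was -2.13, which passed (adjusted p = 0.0451). The direction for Smad3 therefore rests on which single array is left in, and with normexp it was -0.028.

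**Figure D3:**
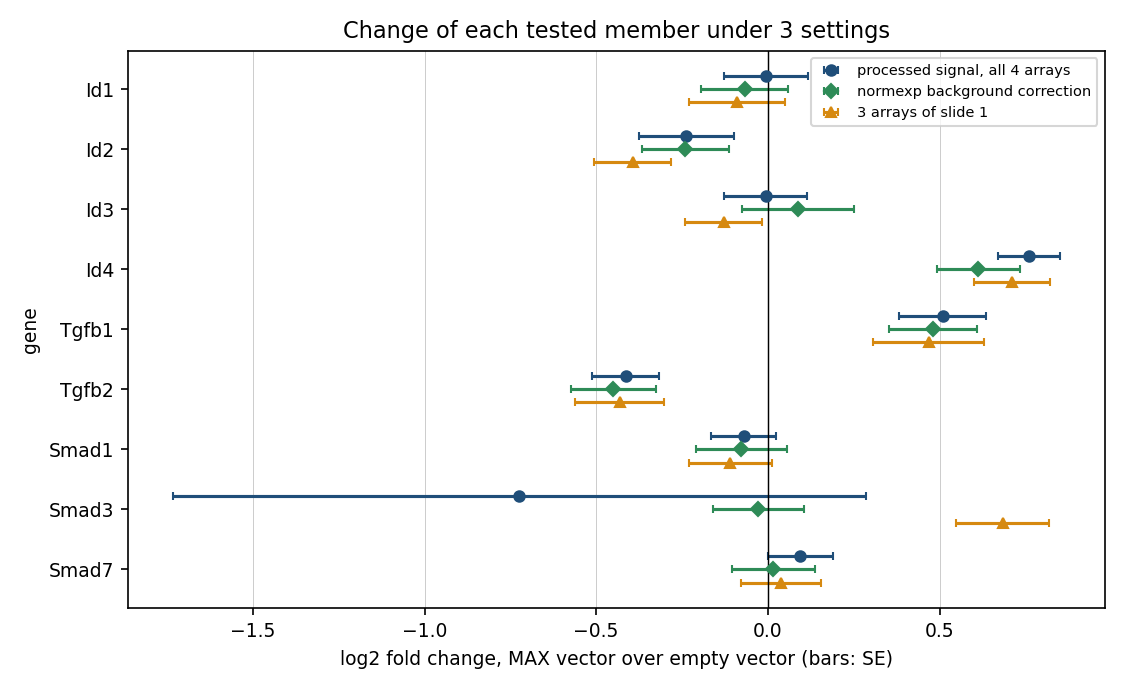
Log2 fold change, MAX vector over empty vector (x axis), of the 9 tested members in 3 fits, with bars of 1 SE; circles are the processed signal on all 4 arrays, diamonds normexp background correction and triangles the 3 arrays of slide 1. Id4, Tgfb1 and Tgfb2 keep their side of 0 in all 3 fits, while Smad3 runs from -0.72 to 0.68.

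A further 140 genes of these pathways were listed by role, of which 82 had a probe named here and 61 were tested. In limma, 0 of the 61 passed, while 5 had an unadjusted p under 0.05 with higher and 9 with lower signal in the MAX vector group, 14 of 61 against 16.1% of all genes. The median log2 fold change of the 61 was -0.071, and 41 of the 61 were negative, against 53.5% of all genes. For 11 genes both MAX vector arrays lay above both empty vector arrays (24.3% of all genes did), and for 22 they lay below (26% of all genes did).

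Among 9 other ligand genes, the median was 0.035. Of these, 3 separated upward, Gdf10 among them, and 1 downward, which is near the 50.3% of all genes that separated either way. Inha, the alpha subunit of inhibin, had 0.53 ± 0.12 (adjusted p = 0.176 in limma), and Inhba, the subunit that forms activin A, had 0.26 ± 0.10. Tgfb3, the third TGF-beta isoform, had -0.33 ± 0.13, with its MAX vector arrays below the others as for Tgfb2. Gdf6, a BMP-type ligand, overlapped (-0.28 ± 0.33). Gdf10, a BMP-3-like ligand singled out after its values were seen, was not well above background in either empty vector array (-7.71 and -8.18) and was in both MAX vector arrays (-5.12 and -5.57). Set against the lowest signal that any probe had well above background on each empty vector array, it was 1.94-fold higher. That floor comes from other probes, so it sets no lower limit on the fold of Gdf10. Normexp gave a smaller value, 1.36-fold (0.44 on the log2 scale). It did not pass in limma (adjusted p = 0.0524, and 0.107 with normexp). Since it entered the test only through the MAX vector arrays, where it is bright, neither its fold nor its p supports anything here.

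In the 10 receptor genes the median was -0.052, with 3 separated upward and 3 downward, also near the 50.3% of all genes. Eng, the endoglin co-receptor that is also a marker of endothelium, gave -4.49, -4.39, -3.40 and -3.88 (0.80 ± 0.19, adjusted p = 0.196 in limma). At this dim signal normexp reduced it to 0.26. Tgfbr2, the type II receptor that binds TGF-beta, gave -3.08, -1.95, -3.74 and -3.90 (-1.30 ± 0.42, adjusted p = 0.272), and its 2 empty vector arrays differed widely. Normexp gave -0.66 for it. Acvr2b, an activin type II receptor, had 0.18 and Amhr2, the receptor of anti-Müllerian hormone, -0.29. The type I receptor genes Bmpr1a and Tgfbr1, named here after their values were seen, had -0.033 and 0.12.

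The 4 other SMAD genes tested lay close to 0, with Smad5 at 0.091, Smad2 at -0.026, Smad9 at -0.15 and the common partner Smad4 at -0.094. In the 7 intracellular regulators the values ran from -0.25 for Zeb2, a SMAD-binding repressor, to 0.18 for Tob1, an antiproliferative SMAD-binding protein. Between them were Fkbp1a (-0.13), which binds type I receptors, and Tgif1 (0.038), a co-repressor of SMAD2. None passed, and the median of these 7 was -0.040.

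The extracellular regulators stood lowest among the role groups, with a median of -0.38 over 10 genes, against -0.019 for all genes. Of the 10, 9 were negative (53.5% of all genes were), 7 had both MAX vector arrays below both empty vector arrays (26% of all genes did), and 5 of these had an unadjusted p under 0.05 (8.21% of all genes did in this direction). Well above background on all 4 arrays were 8 of the 10. The lowest values, of Nrros (-0.97) and Hjv (-0.89), were dim on MAX vector replicate 1. Both are named here after their values were seen, and normexp gave -0.11 and -0.08. Hjv is among the 7, and Nrros overlapped. Fstl1, a follistatin-like secreted protein that binds BMPs, gave 2.98, 2.98, 2.55 and 2.48 (-0.47 ± 0.09, adjusted p = 0.138 in limma). Ltbp1, which tethers latent TGF-beta to the matrix, gave 5.18, 5.01, 4.66 and 4.71 (-0.41 ± 0.11, adjusted p = 0.216). Both genes separated the groups clearly and missed the threshold. The activin antagonists Fstl3 and Fst, added after their values were seen, had -0.40 ± 0.10 and -0.35 ± 0.14. Ltbp2 had -0.19 ± 0.16 with overlap. Dcn, decorin, a TGF-beta-binding proteoglycan, was the single positive gene (-4.82, -5.08, -4.26 and -4.15, 0.75 ± 0.13, adjusted p = 0.127). On its dim probe normexp gave 0.22. No gene of this group passed, and the difference of its median from those of the other groups was not tested.

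**Figure D4:**
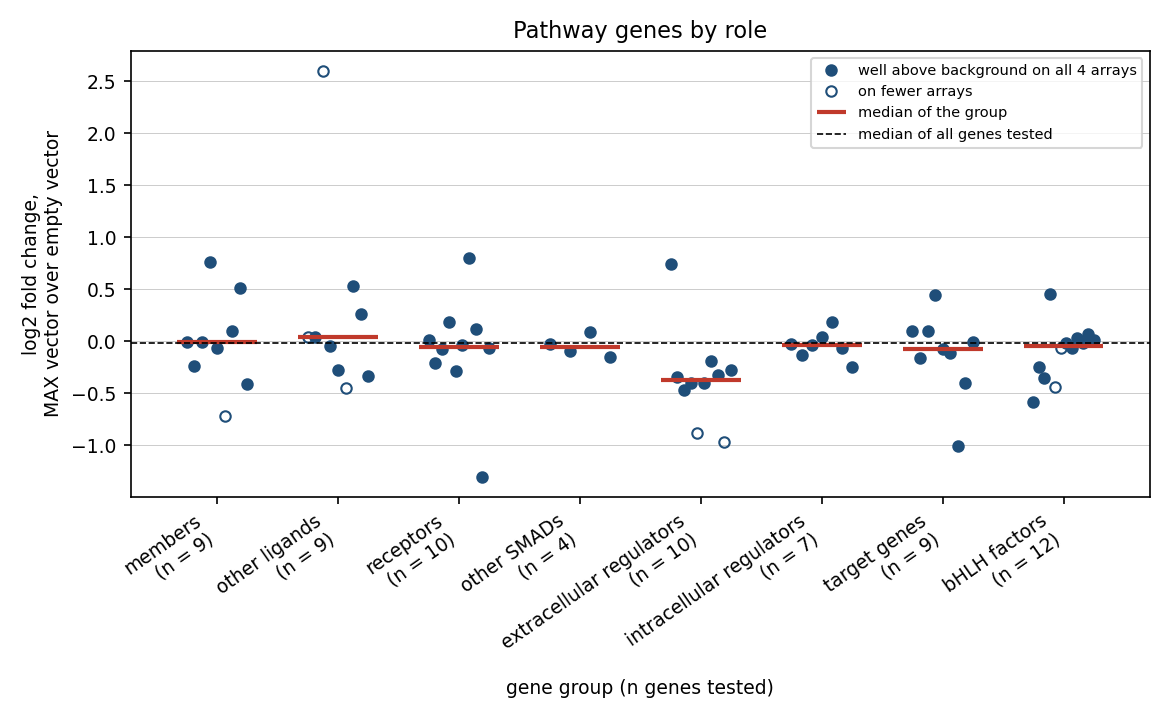
Log2 fold change, MAX vector over empty vector (y axis), of the 9 members and the 61 other pathway genes by role; 1 point per gene, filled where the probe was well above background on all 4 arrays, with the median of each group as a red bar and that of all genes tested as a dashed line. The extracellular regulators have a median of -0.38, and the other medians lie between -0.072 and 0.035.

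Target genes of TGF-beta and BMP signals gave no common direction. Fn1, which encodes fibronectin, a TGF-beta target, gave 3.97, 3.92, 4.48 and 4.32, with both MAX vector arrays above the others (0.45 ± 0.10, adjusted p = 0.185 in limma). Snai1, the epithelial-mesenchymal transition repressor, had -0.40 ± 0.11, and Ccn2, connective tissue growth factor, 0.10 ± 0.09. Over the 9 targets tested, 3 values were positive and 6 negative (53.5% of all genes were negative), with a median of -0.072. Both MAX vector arrays lay above both empty vector arrays for 2 targets (24.3% of all genes) and below them for 4 (26%).

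Partners and relatives of the Id proteins among bHLH genes had a median of -0.045 over 12 genes tested. Hes1, a Notch effector, had 0.46 ± 0.18 and Twist1 0.068 ± 0.09. Hand2, which takes part in noradrenergic differentiation, gave -0.062, -0.047, -0.35 and -0.47 (-0.35 ± 0.09, adjusted p = 0.22 in limma). The E protein genes Tcf3, Tcf4 and Tcf12, which encode the main binding partners of Id proteins and are named here after their values were seen, had 0.032, -0.023 and -0.071.

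Marker lists of several cell types were summed on the linear scale, in units of each array's 75th percentile, and most of these sums were carried by 1 bright probe. Since each probe has its own brightness, a share of a sum is a share of signal and not of transcripts. The 8 chromaffin markers with a probe, of 9 listed, summed to 18.2 and 18.3 in the empty vector group and to 9.94 and 9.87 with MAX, of which Ddc alone made 78% to 89.8% of the sum on each array. Ddc, an enzyme of catecholamine synthesis, passed with lower signal (-1.08 ± 0.08, adjusted p = 0.0386 in limma). Th, the rate-limiting enzyme, passed with higher signal (2.14 ± 0.11, adjusted p = 0.0206). The chromogranin genes Chga and Chgb overlapped between the groups (-0.075 ± 0.42 and 0.17 ± 0.29). Phox2a (-0.74 ± 0.10) and Gata3 (-0.20 ± 0.10) lay lower in both MAX vector arrays without passing. Of the 8, 6 were negative (53.5% of all genes were). Both MAX vector arrays lay below both empty vector arrays for 4 (26% of all genes) and above them for 1 (24.3%). Well above background on all 4 arrays were 6 of the 8. The chromaffin enzyme and transporter genes Dbh (-1.41 ± 0.89) and Slc18a1 (-0.84 ± 0.37) were not on MAX vector replicate 1, and neither passed.

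The 5 epithelial markers summed to 5.18 and 6.50 against 14.2 and 15.1, with Krt15 passing (3.68 ± 0.28, adjusted p = 0.0385 in limma). Krt5, Cdh1 and Epcam also lay higher in both MAX vector arrays (0.85, 1.30 and 0.97) without passing, and Krt14 overlapped. Thus 4 of the 5 separated upward, as did 24.3% of all genes, and 1 passed with higher signal, as did 0.576% of all genes. Macrophage markers, 5 of 6 with a probe, summed to 4.90 and 5.63 against 9.12 and 8.87, of which Cd14 (0.82 ± 0.12, not passing) made 86.4% to 92.3%. Lyz2 had 1.32 ± 0.15 without passing, Cd68 (0.43) and Csf1r (0.055) overlapped, and so did Adgre1 (-0.73). Of these 5, 2 separated upward and 0 downward. Fibroblast markers, 5 of 7, summed to 134 and 149 against 140 and 150, of which Col3a1 (0.069 ± 0.10) made 93.3% to 96.2%. Of the others, Lum had -1.19 ± 0.27, Pdgfrb -0.58 ± 0.15 and Col1a2 -0.16 ± 0.09, and Dcn had the value given above; none passed. Among the 5, 3 separated downward (26% of all genes did) and 1 upward. Endothelial markers, 2 of 5 with a probe and 1 of them, Kdr, above the filter (1.98 ± 0.23, not passing), summed to 0.0265 and 0.0281 against 0.0764 and 0.110. All samples were PC12 cells, so these lists describe marker genes within that line and do not count cell types. Bulk RNA cannot tell a change in every cell from a change in some of the cells. The part of these differences in the values of the members was not tested.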

How the data were processed

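Total RNA of 4 PC12 samples was measured on one-colour Agilent arrays. Per the file headers, the deposited scanner files hold spot intensity from Feature Extraction 10.7.3.1 (10.7 in the submitters' processing notes; grid annotation on build rn4), with the processed intensity already background-subtracted within each array. The authors also deposited a table of log2 values, whose differences between columns followed those of the processed intensity (r = 1). That r does not depend on how arrays are scaled. The log2 fold change of Id4 was 0.761 in their table and with the 75th percentile, against 0.787 with median scaling. The column medians of their table were -0.033, -0.011, -0.005 and -0.006, and the baseline its probes are centred on stays unknown. Spots of a probe were averaged as log2 signals, leaving out flagged spots (89 to 140 per array), and each array's 75th percentile over probes (698.5, 610.7, 588.8 and 665.1 units) was subtracted. The filter kept probes that at least 2 of 4 arrays had well above background, with the brightest probe per gene. The MAX vector group was tested against the empty vector group by lmFit and eBayes of limma 3.58.1, run in R 4.3.3 (total degrees of freedom 3.94), and p-values were adjusted by Benjamini-Hochberg over 25356 genes, with a threshold of 0.05; the steps were tested on simulated data. Normexp used the median signal, since the files list no mean signal. Names came from RefSeq accessions through the RefSeq table of GRCr8 (10768 probes named).

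The members, the pathway lists and the marker lists were chosen with earlier results of these data known. Named genes were all members with every probe, any pathway gene that passed, the 2 largest positive and 2 largest negative values in each role group among genes well above background on all 4 arrays, and the 5 genes nearest Id4; others are said to be chosen after their values were seen. Not every gene that meets this rule is reported here. Alternatives covered scaling, background correction, filters, flagged spots, the choice of probe, the authors' table, the variance trend, slide and replicate blocks and each array left out.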

Additional observations from a re-analysis of the deposited data

How the results depend on the processing

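Over 19 alternatives, 142 of 161 member values kept their direction and their side of the threshold, 4 newly passed and 15 changed sign. The percentile over spots was added after seeing the data. These counts hold repeats: the slide block, slide 1 alone and leaving out MAX vector replicate 1 are the same fit. A replicate block and a variance trend cannot change a log2 fold change here, and the authors' table nearly repeats the processed signal. The fit with 1 row per probe added no member value. Id4 stayed between 0.61 and 0.89, Tgfb1 between 0.38 and 0.63, Tgfb2 between -0.48 and -0.35, Id2 between -0.39 and -0.083 and Smad7 between 0.016 and 0.15. Sign changes were Id1 at 0.021 (median scaling), 0.007 (quantile) and 0.02 (75th percentile over probes above background on all arrays), Id3 at 0.019 (median scaling), 0.018 (that percentile), 0.089 (normexp) and 0.011 (mean of probes), Smad1 at 0.004 (mean of probes) and Smad3 at 0.684 (slide as a block and within slide 1). With an array left out, Id1 ran from -0.094 to 0.085, Id3 from -0.129 to 0.116 and Smad3 from -2.133 to 0.684.

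The number of genes passing in limma, 213, became 790 with normexp, 575 with median scaling, 519 with the filter on all 4 arrays, 956 with a variance trend, 10 with the slide as a block or within slide 1, and 0 with no filter (4044 at an unadjusted p under 0.05). Calls were 146 higher and 67 lower, against 427 and 363 with normexp and, with the slide blocked, 10 and 0. Leaving out an array gave 0 to 167: 0 without empty vector replicate 1 (1966 at an unadjusted p under 0.05) or 2 (2453), 10 without MAX vector replicate 1 and 167 without MAX vector replicate 2. Members passing, 0, became 1 with normexp, the filter on all 4 arrays or the trend (Id4 each time) and ranged from 0 to 1 with an array left out (Smad3). Pathway genes passing, 0, became 1 with normexp, quantile normalization or the filter on all 4 arrays, 1 with 1 row per probe (Gdf10), 2 with median scaling (Gdf10 among them) and 3 with the trend (Fn1 and Fstl1 among them). The cause of these differences was not tested.

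The difference between the replicates of a group had a correlation of -0.018 between the groups over 25356 genes. That value cannot decide whether the replicate numbers pair the samples, since the passage of each replicate was not given. The MAX vector replicates also lay on different slides, while the empty vector replicates shared a slide. Limma with a replicate block left 0 genes passing (3890 with an unadjusted p under 0.05), and Id4 had an adjusted p of 0.167. Probes near background, such as those of Smad3 and Bmp4, limit what signal over background allows.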
